A study of Mus musculus with 24 samples.

Results

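The part of the spleen transcriptome described here is a set of 10 genes used as markers of monocytes: Csf1r, Clec4a1, Clec4a3, Lyz2, Plac8, Ccr2, Cx3cr1, Ly6c2, Fn1 and F13a1. They were named as a list and looked up by symbol among the 55414 genes of the count tables, where each was found once. The series profiled spleens labelled as splenocytes of BALB/c mice, with CT-26, a colon carcinoma cell line of that strain, injected into the right side of mice that were 8 weeks old. Of its 24 libraries, the 8 RNA-seq libraries were used, 4 titled CT-26 and 4 titled control; the 16 T and B cell receptor libraries hold no values for these genes. The labels contradict each other: the libraries titled CT-26 carry the treatment field of healthy controls, and those titled control carry that of injected CT-26 cells. Either field gives the same 2 sets of libraries. They are called by their titles, no value is read as injected or uninjected, and a positive fold change means a higher level in titled CT-26. The sources used here do not give the sex of the mice, the time from injection to collection, or whether each library is 1 mouse, so a p-value measures only the spread between these libraries.

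Monocytes are made in bone marrow and held in reserve in the spleen. Growth and survival of the lineage run through the receptor Csf1r. In mice, classical monocytes carry Ly6C and the chemokine receptor Ccr2 and enter inflamed tissue, whereas patrolling monocytes carry little Ly6C and much of the fractalkine receptor Cx3cr1. None of the 10 genes belongs to monocytes alone. Csf1r and Lyz2 are also high in macrophages, Lyz2 and Ly6c2 in developing neutrophils, Plac8 and Ly6c2 in lymphocytes, and Fn1 in stromal cells. In bulk spleen RNA, fewer cells of a type and less RNA per cell cannot be told apart.

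The RNA libraries were shallow, with between 735298 and 1152550 counts in the titled CT-26 set and between 907109 and 1970950 counts in the titled control set. Mitochondrial genes took between 32.0% and 41.1% of the titled CT-26 counts and between 46.2% and 66.1% of the titled control counts. Levels below are CPM (counts over the library total, brought to a common scale), with totals scaled by trimmed mean of M values (TMM), and ± is an SD over the 4 libraries of a set unless it is named as a standard error (SE). Differences between the sets were widespread: at a Benjamini-Hochberg adjusted p under 0.05 in edgeR's quasi-likelihood test, titled CT-26 was higher for 21.2% and lower for 21.6% of the 6408 genes that could be tested. Without TMM the split was uneven, with 1936 genes higher and 725 lower, against 1359 higher and 1381 lower with TMM.

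The monocyte genes did not move together. Of the 8 that could be tested, 5 fell (Csf1r, Lyz2, Clec4a1, Clec4a3 and Plac8; 21.6% of all genes tested) and 1 rose (Fn1; 21.2% of all genes tested), while Ccr2 and Ly6c2 did not pass the test. Cx3cr1 and F13a1 had too few counts to be tested. The filter kept a gene that reached 8.80 CPM, here of the unscaled library total, in at least 4 libraries. Clec4a3 met it in the 4 titled control libraries alone and Fn1 in 3 titled CT-26 libraries and 1 titled control library, so both were kept through the set where they were high. The other 6 tested genes met it in all 8 libraries. For 5 of the 10 genes every titled CT-26 library lay below every titled control library, and for F13a1 every titled CT-26 library lay above. Among all genes tested, the sets did not overlap for 18.9% with titled CT-26 lower and for 19.7% with titled CT-26 higher.

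**Figure D1:**
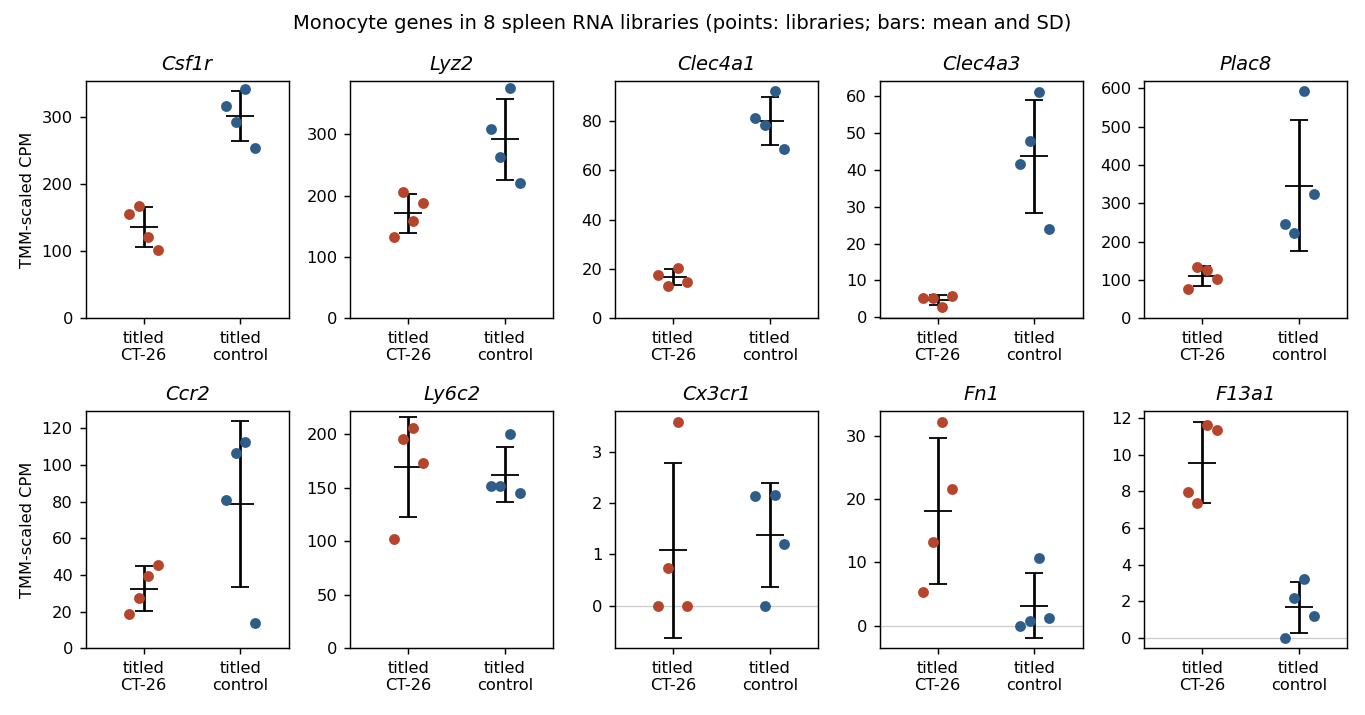
TMM-scaled CPM (vertical axes, a scale for each gene) of the 10 monocyte genes in titled CT-26 libraries (left) and titled control libraries (right), with points for libraries and bars for mean and SD over 4. The sets are apart for Csf1r, Lyz2, Clec4a1, Clec4a3, Plac8 and F13a1, while a titled control library at 13.8 CPM of Ccr2 lies below the titled CT-26 libraries, unlike the others of its set, and one at 10.7 CPM of Fn1 lies within the titled CT-26 range.

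Csf1r (ENSMUSG00000024621, chromosome 18, 61233670 to 61265221 on the plus strand, GRCm39) encodes the receptor tyrosine kinase for the cytokines Csf1 and Il34. Its level was 155, 167, 122 and 101 CPM in titled CT-26 libraries 1 to 4, against 316, 292, 342 and 254 CPM in titled control libraries 1 to 4. Even the lowest titled control library stood well above the highest titled CT-26 library. In titled CT-26 it was 2.20-fold lower, a log2 fold change of -1.14 ± 0.21 (SE; edgeR adjusted p = 6.74e-05). Of its exon bases, 15.1% lie in exons of Hmgxb3 on the opposite strand, a gene with between 0 and 2 counts a library, and fragments that fall in both genes were not assigned to either.

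Lyz2 (ENSMUSG00000069516, chromosome 10, 117113236 to 117118226 on the minus strand) encodes the lysozyme of myeloid cells, which cuts bacterial cell walls. It had 133, 206, 159 and 187 CPM in titled CT-26 libraries 1 to 4, against 309, 263, 375 and 221 CPM in titled control libraries 1 to 4. The sets came close without overlapping, with the highest titled CT-26 library at 206 CPM and the lowest titled control library at 221 CPM. The log2 fold change of -0.77 ± 0.22 (SE) was the smallest of the falls (edgeR adjusted p = 0.00476). Scaled by library totals without TMM, which raised the fold change of all genes by a median of 0.37, Lyz2 was at -0.40 and did not pass (edgeR adjusted p = 0.221). Of the 50-base stretches of its transcripts, 15.4% also occur in the paralog Lyz1, which had between 0 and 6 counts a library.

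The C-type lectin genes Clec4a1 (ENSMUSG00000049037, chromosome 6, 122898807 to 122911578) and Clec4a3 (ENSMUSG00000043832, chromosome 6, 122929474 to 122946834) lie next to each other on the plus strand, 17895 bases apart with no gene between them in the tables' annotation. They encode surface receptors of the Dcir family, which bind sugars, on monocytes, macrophages and dendritic cells. Clec4a1 had 17.7, 13.3, 20.6 and 14.8 CPM in titled CT-26 libraries 1 to 4, against 81.2, 78.3, 92.4 and 68.6 CPM in titled control libraries 1 to 4. No titled CT-26 library came near the titled control range. This was 4.80-fold lower in titled CT-26, or -2.26 ± 0.25 as log2 (SE; edgeR adjusted p = 3.41e-08).

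Clec4a3 fell further. It had 5.31, 5.16, 2.68 and 5.68 CPM in titled CT-26 libraries 1 to 4, which rest on 6, 7, 3 and 5 counts. In titled control libraries 1 to 4 it had 41.6, 47.8, 61.2 and 24.1 CPM, from 39, 66, 57 and 40 counts. The sets were again apart, with titled control 4 the lowest of its set for both lectins. The fitted log2 difference was -3.17 ± 0.37, or 9.02-fold lower in titled CT-26 (SE; edgeR adjusted p = 5.72e-08). The transcripts of Clec4a1 and Clec4a3 share none of their 50-base stretches with another gene.

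The 250 bases upstream of the start site are shown for the neighbouring lectin genes, for Plac8, which also fell, and for F13a1, whose titled CT-26 libraries were all higher, so that genes of both directions can be compared letter by letter. The sequences are those of RefSeq on GRCm38.p6, and the start site farthest upstream was taken where a gene has several. Capitals mark GAGGAA or its reverse complement TTCCTC, the core letters bound by PU.1, the transcription factor (gene Spi1) that drives myeloid genes. The windows of Clec4a1 (chr6:122921598-122921847, plus strand), Clec4a3 (chr6:122952265-122952514, plus strand), Plac8 (chr5:100572206-100572455, minus strand) and F13a1 (chr13:37050245-37050494, minus strand) read 5′ to 3′:
Clec4a1: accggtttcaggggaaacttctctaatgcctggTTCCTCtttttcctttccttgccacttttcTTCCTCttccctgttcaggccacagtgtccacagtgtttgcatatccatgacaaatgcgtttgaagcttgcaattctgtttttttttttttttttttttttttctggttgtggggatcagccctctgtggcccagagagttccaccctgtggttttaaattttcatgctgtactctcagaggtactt
Clec4a3: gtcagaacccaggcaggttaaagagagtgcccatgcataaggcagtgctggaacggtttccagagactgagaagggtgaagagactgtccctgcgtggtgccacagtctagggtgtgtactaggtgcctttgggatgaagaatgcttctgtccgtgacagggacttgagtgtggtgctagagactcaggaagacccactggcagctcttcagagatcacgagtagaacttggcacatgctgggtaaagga
Plac8: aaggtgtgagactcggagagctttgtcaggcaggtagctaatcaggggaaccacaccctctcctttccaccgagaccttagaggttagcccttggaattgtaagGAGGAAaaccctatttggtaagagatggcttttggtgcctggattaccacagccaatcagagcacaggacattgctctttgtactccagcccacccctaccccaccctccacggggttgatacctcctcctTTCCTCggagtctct
F13a1: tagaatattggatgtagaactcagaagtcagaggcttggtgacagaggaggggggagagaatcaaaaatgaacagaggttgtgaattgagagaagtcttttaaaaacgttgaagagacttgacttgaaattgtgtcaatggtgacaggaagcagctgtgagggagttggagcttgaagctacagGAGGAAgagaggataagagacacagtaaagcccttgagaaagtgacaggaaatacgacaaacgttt

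Clec4a1 and Plac8 each held the GAGGAA letters in 2 places, F13a1 in 1 and Clec4a3 in none, so they stood in windows of genes on both sides of the comparison. Windows of 8 of the 10 genes were searched, and 4 of these held the letters (the fourth was Ly6c2), against 23.3% of 32851 windows of the same length. Each of the 8 genes gave 1 window, whereas the 32851 windows hold every listed start site of a gene. The shares here and below are thus per gene and per start site. Csf1r and Fn1 were not searched. Fn1 had no window in the reference, and chromosome 18, which holds Csf1r, was left out for the monocyte genes but not for the 32851 windows. The 4 of 8 thus does not describe all 10 genes. The letters TTGCNNAA, a form of the site of C/EBP factors, were in 0 of the 8 windows and in 9.56% of all windows, with both strands searched. The gene Spi1 itself had 32.7 ± 8.91 CPM in titled CT-26 and 32.0 ± 7.23 CPM in titled control and did not pass (log2 fold change 0.03 ± 0.28, SE; edgeR adjusted p = 0.942).

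Plac8 (ENSMUSG00000029322, chromosome 5, 100701591 to 100720111 on the minus strand) encodes a small cysteine-rich protein of monocytes, granulocytes and some lymphocytes. It had 75.2, 134, 127 and 103 CPM in titled CT-26 libraries 1 to 4, against 247, 222, 593 and 324 CPM in titled control libraries 1 to 4. Titled control 3 stood far above the other titled control libraries. Plac8 was 3.14-fold lower in titled CT-26, with a log2 fold change of -1.65 ± 0.27 (SE; edgeR adjusted p = 3.35e-05). Without titled control 3 it was -1.27 and passed (edgeR adjusted p = 9.94e-05).

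Ccr2 (ENSMUSG00000049103, chromosome 9, 123901987 to 123913594 on the plus strand) encodes the receptor for the chemokine Ccl2, by which classical monocytes leave the bone marrow. It had 18.6, 27.3, 39.3 and 45.4 CPM in titled CT-26 libraries 1 to 4, against 81.2, 107, 113 and 13.8 CPM in titled control libraries 1 to 4. Titled control 4, the deepest library, held 23 counts of Ccr2 and was lower than every titled CT-26 library, whereas the other titled control libraries were higher than all of them. The log2 fold change of -1.26 ± 0.61 (SE) did not pass (edgeR adjusted p = 0.136), and its 95% interval ran from -2.68 to 0.15. Without titled control 4 it was -1.63 and passed (edgeR adjusted p = 5.39e-06), and it also passed with no filter on low counts (edgeR adjusted p = 0.0108).

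Cx3cr1 (ENSMUSG00000052336, chromosome 9, 119730682 to 119898945 on the minus strand), the fractalkine receptor of patrolling monocytes, was barely detected. It had 0, 1, 4 and 0 counts in titled CT-26 libraries 1 to 4 and 2, 0, 2 and 2 counts in titled control libraries 1 to 4. The ratio of the summed, scaled counts, titled CT-26 over titled control, was 0.912 with an exact 95% interval from 0.220 to 3.59 that covers counting error only, and reads without molecular identifiers are not independent molecules. At this depth a change within that interval was not detectable.

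Ly6c2 (ENSMUSG00000022584, chromosome 15, 74980007 to 74983819 on the minus strand) encodes the surface protein Ly6C that marks classical monocytes. It had 103, 196, 206 and 174 CPM in titled CT-26 libraries 1 to 4, against 152, 152, 201 and 145 CPM in titled control libraries 1 to 4. The sets overlapped: titled CT-26 1 was the lowest of all 8 libraries and titled CT-26 3 the highest. The log2 fold change of 0.06 ± 0.22 (SE) did not pass (edgeR adjusted p = 0.836), with a 95% interval from -0.39 to 0.52. It was 0.41 without TMM and -0.32 with the sequencing lane in the model, and passed in neither. Ly6c2 shares 13.9% of its 50-base stretches with its neighbour Ly6c1, and fragments lying wholly within such stretches were not counted.

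Fn1 (ENSMUSG00000026193, chromosome 1, 71624679 to 71692359 on the minus strand) encodes fibronectin, a matrix glycoprotein that stromal cells make in quantity and classical monocytes and macrophages make as well. It had 5.31, 13.3, 32.2 and 21.6 CPM in titled CT-26 libraries 1 to 4, against 0, 0.725, 10.7 and 1.20 CPM in titled control libraries 1 to 4. Titled control 3 held 10 of the 13 titled control counts and lay above titled CT-26 1, so the sets overlapped there. The log2 fold change of 2.66 ± 0.76 (SE), or 6.30-fold higher in titled CT-26, passed (edgeR adjusted p = 0.0116), with a 95% interval from 1.01 to 4.30. It was 4.40 without titled control 3. It did not pass with DESeq2 (adjusted p = 0.0568) or with the lane as a factor, where it was 1.21 (edgeR adjusted p = 0.145). Within lane 1 the log2 ratio of mean CPM was 0.70 (2 titled CT-26 libraries and 1 titled control library) and within lane 2 it was 3.14 (1 and 2 libraries). The stromal markers listed below had 0 of 5 tested genes passing with TMM and 4 of 5 higher without it, and 2 of 5 higher without titled CT-26 1 or titled control 4. Their summed level ran from 111 to 248 CPM in titled CT-26 and from 64.5 to 129 CPM in titled control. Their part in the Fn1 result was not tested.

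F13a1 (ENSMUSG00000039109, chromosome 13, 37051152 to 37234220 on the minus strand) encodes the catalytic A chain of clotting factor XIII, which cross-links fibrin and fibronectin and is made by monocytes, macrophages and megakaryocytes. It had 9, 10, 13 and 10 counts in titled CT-26 libraries 1 to 4 and 0, 3, 3 and 2 counts in titled control libraries 1 to 4. As CPM these are 7.37 to 11.6 in titled CT-26 and 0 to 3.22 in titled control, so the sets did not overlap. The ratio of the summed, scaled counts was 5.74, with an exact 95% interval from 2.66 to 14.2 for counting error only. With no filter on low counts, F13a1 was fitted at a log2 fold change of 2.53 and passed (edgeR adjusted p = 0.000881). Platelet markers had 0 of 3 tested genes passing with TMM, 2 of 3 higher without it, 6 of 10 higher with no filter, and 1 of 3 higher with DESeq2. With a library left out, 3 of 4 were higher without titled CT-26 1, 2 of 4 without titled control 4, and 1 of 4 without titled control 1, 2 or 3. They had a summed level from 29.2 to 212 CPM in titled CT-26 and from 32.6 to 98.6 CPM in titled control. Their part in the F13a1 values was not tested.

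**Figure D2:**
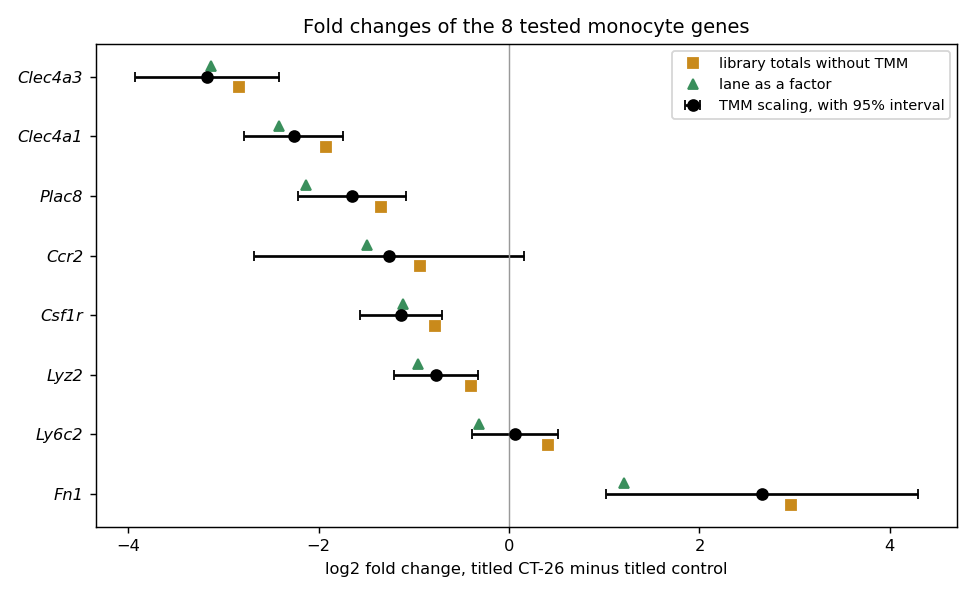
Log2 fold change (horizontal axis, titled CT-26 minus titled control) of the 8 tested monocyte genes, with circles and 95% intervals for TMM scaling, squares for library totals without TMM and triangles for a model with the sequencing lane. The intervals of Ccr2 and Ly6c2 include 0, the Fn1 estimate is 1.21 with the lane in the model, and Ly6c2 changes sign between settings.

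The sequencing lane is written in the names of the deposited tables, and lanes 1 and 2 held libraries of both sets. Titled CT-26 3 and titled control 2 were alone in their lanes and add nothing to the lane fit. Csf1r had a log2 ratio of -1.35 within lane 1 and -0.88 within lane 2. Those of Clec4a1 were -2.72 and -2.08, those of Clec4a3 -3.50 and -2.63, those of Plac8 -2.32 and -1.92, and those of Lyz2 -0.93 and -0.997. All 5 genes that fell also passed with the lane as a factor in edgeR's test.

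Ratios within a library do not depend on scaling, so each tested gene was also set against Csf1r in its own library. The log2 ratio of Clec4a1 to Csf1r was -3.00 ± 0.48 in titled CT-26 and -1.90 ± 0.03 in titled control. That of Clec4a3 was -4.75 ± 0.53 in titled CT-26 and -2.84 ± 0.41 in titled control. Relative to Csf1r, the lectins were thus 2.13-fold and 3.75-fold lower in titled CT-26. The log2 ratio of Ly6c2 to Csf1r was 0.29 ± 0.64 in titled CT-26 and -0.89 ± 0.13 in titled control, which is 2.27-fold higher in titled CT-26. The log2 ratio of Fn1 to Csf1r was -3.12 ± 1.32 in titled CT-26 and -7.40 ± 1.81 in titled control. For these 4 ratios the sets did not overlap, which gave the smallest p that 70 assignments of libraries allow (two-sided exact permutation p = 0.0286, n = 4 per set). Adjusted over the 7 ratios this is 0.05, at the threshold and not under it, so 0 of the 7 passed and 4 had an unadjusted p under 0.05. Clec4a3 and Fn1 among the 4 were kept by the filter through the set where they were high, so their separation is not independent of that choice. Fn1 had 0, 1, 10 and 2 counts in titled control libraries 1 to 4, so the 0.5 added to counts weighs on its ratio. Ratios to Csf1r of Lyz2 (difference 0.40, exact permutation adjusted p = 0.24), Plac8 (-0.41, 0.433) and Ccr2 (0.20, 0.857) overlapped. The Ccr2 difference turned to -0.43 without titled control 4 and to -0.12 without titled CT-26 4. Set against Lyz2 in place of Csf1r, 5 of 7 ratios passed (exact permutation adjusted p = 0.04), those of Clec4a1, Clec4a3, Plac8, Ly6c2 and Fn1. These are the 4 above and Plac8, so the limit on Clec4a3 and Fn1 holds here too.

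**Figure D3:**
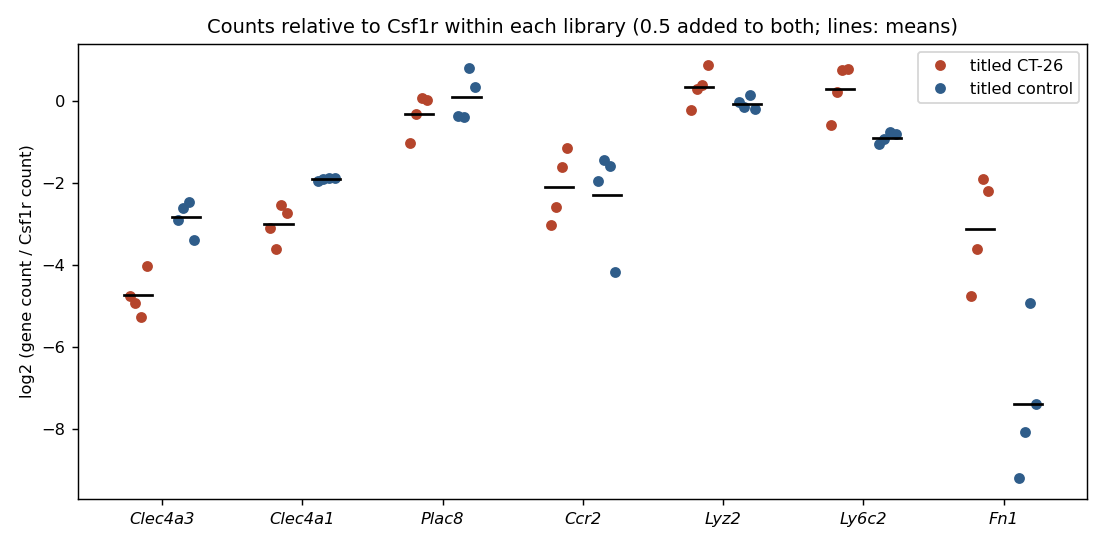
Log2 ratio of the counts of 7 monocyte genes to the Csf1r count of the same library (vertical axis, 0.5 added to both counts), with a point per library, titled CT-26 left and titled control right, and lines for means. Titled CT-26 points lie below all titled control points for Clec4a3 and Clec4a1, and above them for Ly6c2 and Fn1.

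Per kilobase of exon the order of the levels differed between the sets. In titled CT-26, Lyz2 led at 130 ± 24.3 CPM per kilobase, followed by Plac8 at 69.0 ± 16.7 and Ly6c2 at 61.9 ± 16.99, whose ranges overlapped, and Csf1r at 23.6 ± 5.25. Clec4a1 followed at 10.6 ± 2.08 CPM per kilobase, then Ccr2 at 4.83 ± 1.78, Clec4a3 at 3.55 ± 1.03, Fn1 at 1.55 ± 0.99 and F13a1 at 1.42 ± 0.33, each overlapping the next from Ccr2 on, and Cx3cr1 at 0.239 ± 0.378. In titled control, Lyz2 at 222 ± 50.1 and Plac8 at 217 ± 107 CPM per kilobase overlapped at the top. Ly6c2 at 59.3 ± 9.43, Csf1r at 52.1 ± 6.42, Clec4a1 at 51.4 ± 6.29 and Clec4a3 at 32.9 ± 11.6 CPM per kilobase formed a run in which neighbours overlapped. Ccr2 at 11.6 ± 6.70 and, under 1 CPM per kilobase, Cx3cr1, Fn1 and F13a1 came last. Clec4a1 thus stood level with Csf1r in titled control and below it in every titled CT-26 library.

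Genes with the most similar pattern over the 8 libraries were found by the root mean square difference of log2 CPM, each gene centred on its mean, among the 2680 tested genes with a mean log2 CPM of at least 5. Nearest to Csf1r were Pip4p1 at 0.115, Nono at 0.120 and Jagn1 at 0.149 on the log2 scale. Nearest to Clec4a1 were Tmsb4x at 0.174, the phosphatase gene Ptpn6 at 0.192 and Hmox1, the haem-degrading enzyme of red pulp macrophages, at 0.210. Nearest to Clec4a3 were the Toll-like receptor gene Tlr1 at 0.260, Inpp4b at 0.278 and the iron exporter gene Slc40a1 at 0.319. Nearest to Plac8 were the myeloid and NK cell adaptor gene Tyrobp at 0.287, Pole4 at 0.293 and Adcy7 at 0.297. For Lyz2 they were the ribosomal protein gene Rps15a at 0.138, Dnajc10 at 0.169 and Bcap31 at 0.170. For Ly6c2 they were Lims1 at 0.131, Dkc1 at 0.133 and Hat1 at 0.170. The least differences from Ccr2 were larger, at 0.440 for F630028O10Rik, 0.538 for Sp140 and 0.612 for Slc25a17. Those from Fn1 were larger still, at 0.601 for Grina, 0.678 for Ckap4 and 0.679 for the ribonucleotide reductase gene Rrm2.

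Other genes of monocyte biology were read from lists that leave out the 10 genes. The lists here and below share some genes, among them Nkg7, Kit, Itgax and Itgb3, which are counted in each list that holds them. Of 20 classical monocyte genes, 14 were tested, of which 5 were higher and 3 were lower, with a median log2 fold change of 0.41, against -0.02 over all genes tested. The median was -0.06 with the lane in the model, and without titled control 2 or titled control 3 the higher genes numbered 8 of 18 and 8 of 17 tested. Chil3, a chitinase-like protein of monocytes and neutrophil precursors, rose by a log2 fold change of 4.05 (edgeR adjusted p = 9.37e-09). The lipopolysaccharide co-receptor gene Cd14 had 77.6 ± 39.1 CPM in titled CT-26 and 7.96 ± 1.30 CPM in titled control, a rise of 3.29. The matrix glycoprotein gene Thbs1 rose by 4.40, and by 5.52 without titled control 4. Cd14 and Thbs1 are known to be made by neutrophils or platelets as well.

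Of 22 patrolling monocyte genes, 12 were tested, of which 2 were higher and 8 were lower, with a median log2 fold change of -1.13. Without TMM, 5 were lower. Treml4, a receptor of patrolling monocytes and splenic macrophages, had 2.65, 2.21, 0.894 and 6.81 CPM in titled CT-26 libraries 1 to 4, against 38.4, 42.8, 66.6 and 33.7 CPM in titled control libraries 1 to 4. Its sets were far apart, with a log2 fold change of -3.89 ± 0.41 (SE; edgeR adjusted p = 1.20e-08). Adgre4, an adhesion receptor of these cells, changed by -2.04, and the B cell expressed genes Stap1 and Pou2f2 by -2.16 and -1.71. The higher genes were the fatty acid transporter gene Cd36 and the peptidoglycan-binding Pglyrp1, at 0.81 and 1.39. Nr4a1, the transcription factor that patrolling monocytes need, was too low to test, with 7, 4, 8 and 4 counts in titled CT-26 libraries 1 to 4 and 4, 14, 4 and 13 counts in titled control libraries 1 to 4. Apoc2 of this list had 0 counts in all 8 libraries.

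Of 31 genes shared by monocytes, macrophages and neutrophils, 29 were tested, of which 5 were higher and 10 were lower, with -0.28 as their median log2 fold change. Without TMM it was 0.05, and 8 were higher and 8 were lower. Aif1, an actin-binding protein of macrophages, had 4.78 ± 2.14 CPM in titled CT-26 and 59.5 ± 9.16 CPM in titled control (log2 fold change -3.63, edgeR adjusted p = 1.08e-09). The signalling adaptor gene Tyrobp changed by -1.70. Alox5ap, which helps make leukotrienes, and the matrix protein gene Emilin2 rose by 2.67 and 2.23.

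Among 18 transcription factors of monocytes and macrophages, 10 were tested, of which 1 was higher and 5 were lower, with a median log2 fold change of -0.46. Maf, a factor of mature macrophages, changed by -2.13, Klf2 by -1.31 and Irf8, which commits progenitors to monocytes and dendritic cells, by -1.14. Klf4, which classical monocytes need, was too low to test, with 9, 10, 11 and 9 counts in titled CT-26 libraries 1 to 4 and 2, 6, 1 and 2 counts in titled control libraries 1 to 4. The higher gene was Runx1, a regulator of blood stem cells, at 1.25. A second passed without titled CT-26 1, 2, 3 or 4 or titled control 1, 2 or 3, left out singly. Cd36, Pglyrp1, Nr4a1, Klf4 and Runx1 were named after their values were seen.

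The list for the Csf1 receptor pathway, which is broader than that pathway, had 12 of 20 genes tested. Of these, 3 were higher and 5 were lower, with a median log2 fold change of -0.61. Without TMM, 3 were higher and 1 was lower, and without titled control 2 the higher genes numbered 1. The ligand gene Csf1 had 3, 5, 4 and 5 counts in titled CT-26 libraries 1 to 4 and 8, 2, 4 and 10 counts in titled control libraries 1 to 4, and Il34 had between 0 and 2 counts a library. Ptpn6, a phosphatase that damps receptor signalling, changed by -2.09 (edgeR adjusted p = 5.26e-08). The ubiquitin ligase gene Cbl, which removes activated receptor, and the adaptor gene Dok2 changed by -0.95 and -1.26, and neither passed without TMM, nor Dok2 with the lane in the model. The adaptor gene Gab2 rose by 1.60. The other higher genes were Kit at 1.06 and Dap at 0.70, neither particular to this pathway, so the count and median are not a result about the pathway alone. Kit and Dap were named after their values were seen.

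The chemokine list had 5 of 16 genes tested, of which 2 were higher and 1 was lower, with a median log2 fold change of 0.59. Over the 13 tested with no filter the median turned to -1.49. Without titled CT-26 3 or 4, or titled control 2, 3 or 4, the higher genes numbered 1. Ccl5, made mostly by T and NK cells, changed by -1.57. The sheddase gene Adam10 and the chemokine-binding Ackr1 rose by 0.92 and 0.80, and neither passed with the lane in the model. Ackr1 also lost its call with DESeq2 and without any 1 of titled CT-26 2, 3 or 4 or titled control 2, 3 or 4. The Ccr2 ligands were close to absent, with Ccl2 at 1 count over all 8 libraries and Ccl7 and Ccl8 at 0, as was the Cx3cr1 ligand Cx3cl1.

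Fibronectin receptors and clotting genes had 7 of 20 tested, of which 0 were higher and 2 were lower by edgeR's test, with a median log2 fold change of -0.55. With no filter the median turned to 0.07. Without TMM, 1 was higher and 1 was lower. Without titled CT-26 1, 2 of 9 tested genes were higher and the median was -0.09, and without titled control 3, 1 of 9 was higher and the median was 0.0016. With titled control 1, 2 or 4 left out singly, 1 was higher. The integrin gene Itgb7 and the prothrombinase gene Fgl2 changed by -2.11 and -1.16. Fgl2 did not pass without TMM, with the lane in the model, or without titled CT-26 2, titled control 1 or titled control 2. The fibronectin receptor chain Itgb1 had a log2 fold change of 0.20 and did not pass, nor did its partner Itga4, whose 95% interval ran from -0.43 to 0.42. Itgb1 and Itga4 were named after their values were seen.

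Besides the lectin pair, 2 of 8 other listed Clec4 genes were tested and both fell: Clec4n, which binds fungal mannans, by a log2 fold change of -1.58 and Clec4a2, an inhibitory receptor, by -0.90. Clec4a2 did not pass without TMM or without titled control 3. A further Clec4 gene was higher with titled CT-26 1, titled control 2 or titled control 3 left out singly. Of 14 genes of granulocyte-monocyte progenitors, 8 were tested, of which 4 were higher and 2 were lower, with a median of 0.83. The granule protease genes Prtn3 and Elane and the peroxidase gene Mpo rose by 4.71, 4.16 and 5.24, with Mpo at 5.91 without titled control 1. Nkg7, a granule protein that NK cells also make, changed by -1.97.

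**Figure D4:**
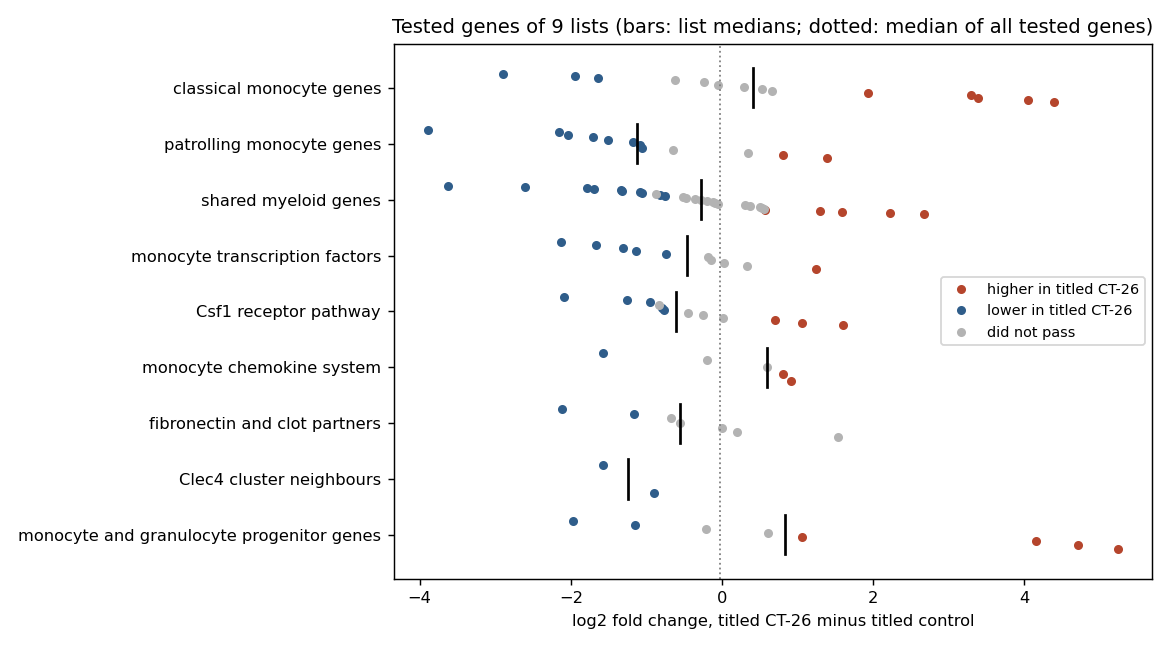
Log2 fold change (horizontal axis, titled CT-26 minus titled control) of each tested gene in 9 lists, coloured by whether it was higher, lower or did not pass, with bars for list medians and a dotted line for the median of all 6408 tested genes. Classical and patrolling monocyte lists have medians of 0.41 and -1.13, and most lists hold genes of both directions.

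Markers of other cells that carry these genes also differed between the sets. Red pulp macrophage markers had 9 of 14 tested genes lower and 0 higher, with a summed level from 1322 to 1724 CPM in titled CT-26 and from 2578 to 2977 CPM in titled control. Among them, Spic, the factor that makes these macrophages, had 8.72 ± 3.73 CPM in titled CT-26 and 85.9 ± 27.6 CPM in titled control, and Slc40a1, Hmox1 and the receptor gene Axl changed by log2 -2.67, -2.11 and -1.70. Without TMM, 7 of the 14 macrophage markers were lower and 1 was higher. Neutrophil markers had 9 of 11 higher and 0 lower, with sums from 4087 to 9935 CPM in titled CT-26 and from 598 to 1834 CPM in titled control. The granule protein genes Ngp, Lcn2 and Mmp8 rose by 3.38, 2.65 and 2.19, and the decoy receptor gene Il1r2 by 4.55, or by 5.20 without titled control 1. Dendritic cell markers had 4 of 4 lower, with sums from 36.8 to 55.7 CPM in titled CT-26 and from 129.9 to 212 CPM in titled control. These were Ccr9, Itgax, Siglech and Cd83, at -3.71, -1.51, -1.77 and -0.88. Siglech lost its call without titled CT-26 1, and Cd83 without TMM, with no filter, with the lane in the model, and without titled CT-26 2, 3 or 4 or titled control 3, left out singly. Without TMM, and with the lane, 3 of 4 were lower.

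B cell markers, led by Ms4a1, Cr2, Fcer2a and Cd22, had 9 of 10 lower, with sums from 323 to 695 CPM in titled CT-26 and from 1816 to 2807 CPM in titled control. T cell markers, led by Cd8b1, Cd3g, Cd8a and Trac, had 9 of 9 lower, with sums from 164 to 419 CPM in titled CT-26 and from 752 to 797 CPM in titled control. Without TMM, 7 of the 9 T cell markers were lower. NK cell markers had 4 of 4 lower (Gzma, Klrd1, Ncr1 and Nkg7), with sums from 23.6 to 48.6 CPM in titled CT-26 and from 179 to 402 CPM in titled control. Ncr1 changed by -4.89, and by -6.92 without titled CT-26 1. Markers of spleen-resident macrophages and of lymphocytes were thus present in every library, as the tissue label says. Erythroid markers, which include Slc4a1, Rhag and Ermap, had 9 of 9 higher, with sums from 2821 to 5288 CPM in titled CT-26 and from 786 to 940 CPM in titled control. With the lane in the model 7 of the 9 were higher, and 8 without titled CT-26 4, titled control 1 or titled control 2, left out singly. Endothelial markers had 1 of 3 lower with TMM (Pecam1) and 0 without it. Among the markers, Vsig4 of the macrophages and Klra8 of the NK cells were at 0 in all libraries. The part of these cells in the monocyte gene results was not tested.

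**Figure D5:**
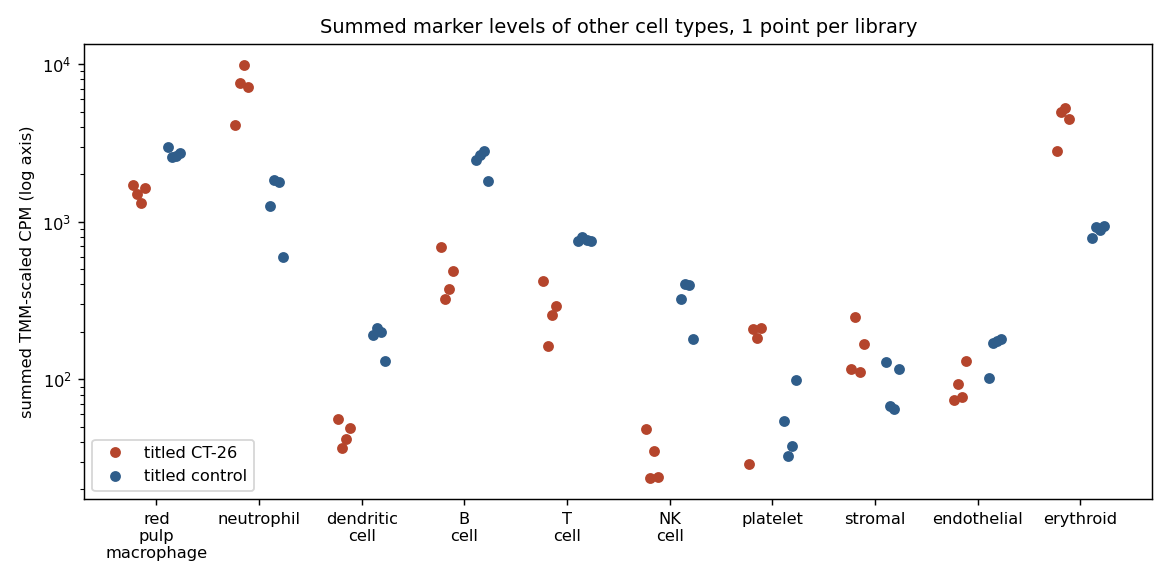
Summed TMM-scaled CPM (vertical log axis) of marker lists of 10 other cell types, with a point per library, titled CT-26 left and titled control right of each position. Sums are lower in all titled CT-26 libraries for red pulp macrophages, dendritic, B, T and NK cells, and higher for neutrophils and erythroid cells, with platelet, stromal and endothelial sums overlapping.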

How the data were processed

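The RNA tables were deposited by the authors as raw counts of fragments per gene, 1 library a file, made per the file headers with featureCounts 2.0.1 in paired-end mode on GENCODE M29 gene models. The command in the headers sets neither strand counting nor the options that count multi-mapping or overlapping fragments, so fragments shared by near-identical copies, or by genes that overlap on opposite strands, were left out. Per the submitters' processing notes, the tools were Trimmomatic 0.39 for read trimming and STAR 2.7.10a for alignment, and the builds GRCm39 and GRCm38 are both listed. Gene coordinates are those of the deposited tables, promoter windows those of RefSeq on GRCm38.p6, and none were converted. Symbols from a reference table, used for names only, matched 52081 of 55414 genes.

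After filterByExpr and TMM scaling, edgeR 4.0.16 (R 4.3.3) fitted the robust quasi-likelihood test to the 8 libraries, with p adjusted over the 6408 genes kept. Ratios to Csf1r (0.5 added to counts) were compared by exact permutation with scipy 1.17.1. DESeq2 1.42.0, other scalings and filters, the lane, a replicate block and leaving out each library were alternatives. The procedure was tested on simulated data. The 10 genes and the 19 lists were chosen with earlier results of these data known. By rule, the text names the 10 genes, up to 4 tested genes of smallest p in a list, markers of the lists, and the 3 genes most alike to each tested gene. Some genes that the rule names are left out of the text. Others are said to be chosen after their values were seen. No 2 libraries of a set were copies by counting noise (least chi-square per degree of freedom 4.38). No label says that equal replicate numbers mark a shared mouse, day or litter.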

Additional observations from a re-analysis of the deposited data

Results flagged for a closer look

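Of 20 groups of 4 libraries checked, 10 genes in 2 sets, 2 had a library standing apart from the others by Dixon's test, which chance alone does for about 1 group in 20. Both were titled control 3. It had 201 CPM of Ly6c2, against 145 to 152 CPM in the other titled control libraries. It also had 10.7 CPM of Fn1, against 0 to 1.20 CPM in the other titled control libraries.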

How the results depend on the processing

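The count of 5 lower monocyte genes was between 4 and 6 under the other scalings, filters, DESeq2, the lane and the replicate block, and 5 or 6 with a library left out. The single higher gene was 0 with DESeq2 and with the lane, 2 with no filter, and between 1 and 2 with a library left out. Of 6408 genes, 1381 were lower with TMM and 725 without it, and 1359 were higher with TMM and 1936 without it. With a library left out, lower genes numbered between 1251 and 1462 and higher genes between 1236 and 1486. The log2 fold change of Lyz2 lost its call without TMM (-0.40), that of Fn1 with DESeq2 (2.56) and with the lane (1.21), and that of Ccr2 gained one with no filter (-1.19) and without titled control 4 (-1.63). The cause was not tested. With the replicate block the same 5 lower and 1 higher gene counts were found, and no call of a monocyte gene changed, but Ackr1 lost its call (1 of 5 chemokine genes higher) and the platelet gene Pf4 gained one (1 of 3 higher). Deviations from the set means of libraries with equal numbers correlated between -0.0914 and 0.0764, and 1 of 4 titled CT-26 libraries correlated best with the titled control library of its own number. Of 7 ratios, 0 passed when taken to Csf1r and 5 when taken to Lyz2. That contrast turns on Plac8 alone. With Csf1r, 4 ratios had the smallest p possible, adjusted to 0.05, and with Lyz2 the same 4 and Plac8 had it, adjusted to 0.04 (exact permutation test). With a library left out or with 4 pairs, 0 passed, where the smallest p possible (0.0571 and 0.125) cannot pass. Depth limits Cx3cr1, F13a1 and Fn1, whose titled control sums were 6, 8 and 13 counts.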
